A study of Syntrichia ruralis with 8 samples.

Results

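Tortula ruralis, also named Syntrichia ruralis, is a moss that survives drying, and its slow-dried plants were set here against rapid-dried and rehydrated ones in polysomal RNA. The comparison used 4 of the study's 8 2-colour cDNA arrays, 2 for each treatment, and all 768 clones printed on them. Each array held polysomal RNA of treated gametophytes, the leafy haploid plants, in one channel and polysomal RNA of hydrated gametophytes in the other, and the dyes were exchanged between the 2 arrays of a treatment. The value of a clone on an array was the log2 ratio of treated to hydrated signal, and the quantity compared was the mean ratio in slow-dried plants minus that in rapid-dried rehydrated plants. The arrays were taken by their labels and the clones were all those on the array, so no measured value chose either.

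In both groups the plants had been collected and stored dry, then kept hydrated for 48 h before treatment. Slow-dried plants lost water over 24 h above sodium nitrite at a relative humidity of 66% and 20 °C, and were frozen while dry. Rapid-dried rehydrated plants were dried over silica gel, rewetted for 2 h and then frozen. Each RNA preparation was pooled from several clumps of plants, the 2 arrays of a treatment used 2 separate preparations, and the polysomal RNA came from other plant samples than the total RNA, per the labels. The title of 1 rapid-dried rehydrated array, slide 85, calls it slow-dried, while its source name and its protocol call it rapid-dried rehydrated, and it was placed by the latter. Its log2 ratios correlated with those of the other rapid-dried rehydrated array at r = 0.929 over 768 clones and with both slow-dried arrays at r = 0.738. The 2 groups differed in the speed of drying and in whether the plants were dry or wet at harvest, and these cannot be told apart. The sources used here do not say whether both treatments were set against the same hydrated RNA. The clones derive from a subtractive library and do not sample the genes of the moss at random. A few others were added by the study as controls on the basis of earlier RNA blots: 4 ribosomal proteins described as unaffected by treatment, the rehydrins Tr-155, Tr-403 and Tr-421 as up-regulated, Tr-217 and Tr-416 as down-regulated, and a calmodulin-like domain protein kinase as neutral.

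Polysomes are messenger RNAs carrying several ribosomes, and in hydrated plants the RNA of that fraction samples the messages engaged in protein synthesis. In this moss, protein synthesis is known to stop as the plant dries and to resume on rewetting. The slow-dried plants were frozen dry, so a difference in polysomal RNA is not a measure of protein synthesis. Messages that enter polysomes during rehydration have been called rehydrins. Slow drying lets the plant respond to water loss before it is dry, while rapid drying leaves little time for this, so the pair of treatments sets messages held in polysomal RNA of dried plants against those loaded on recovery. The amount of polysomal RNA per plant was not measured, since a set mass of RNA was labelled, and a shift in the cells that supplied the RNA cannot be told apart from a shift within cells.

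Of the 768 clones, 209 carried an annotation and 559 did not, and each was printed in 3 spots. The share of clones well above background on the 4 polysomal arrays ran from 89.7 to 98.3% in the treated channel and from 85.2 to 94.5% in the hydrated one. On the total RNA arrays it was lower in the hydrated channel, from 36.6 to 81.9%, and ran from 81.4 to 93.8% in the treated one. The total RNA arrays also help set the error in the fit of all arrays. The arrays of a pair agreed more closely in polysomal RNA, where the median clone differed by 0.207 (slow-dried) and 0.130 (rehydrated) on the log2 scale, than in total RNA, where it differed by 0.384 and 0.301. Loess normalization put the typical clone of every array at 0, so higher and lower are relative to the other clones on the array. On every polysomal array the 4 ribosomal protein controls were below the typical clone, on average more so in slow-dried than in rehydrated plants. A scale that sets these control clones to 0 therefore raises every slow-dried value by 1.42, every rehydrated value by 1.05, and every difference between the treatments by 0.37.

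In the fit of all 8 arrays, 30 clones differed, 3.91% of the 768. Of these, 28 were lower in slow-dried than in rehydrated polysomal RNA (3.65%) and 2 were higher (0.26%), at a Benjamini-Hochberg adjusted p under 0.05 in limma. The clones called lower with an annotation were the rehydrin Tr-416, a microsomal glutathione S-transferase 3, a calmodulin-like domain protein kinase, a protein phosphatase 2C, a chloroplast carbonic anhydrase, the heat shock cognate Hsp70, a serine carboxypeptidase, the 12-oxophytodienoate reductase OPR2 and a hypothetical protein. They differed by 1.12 to 1.82 on the log2 scale, between 2.17-fold and 3.53-fold. Both clones called higher were unannotated. On all 30 the slow-dried arrays did not overlap the rehydrated ones, as was so for 36.7% of all clones in the higher direction and 33.9% in the lower.

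How many clones were called depended on which arrays set the error. With only the 4 polysomal arrays in the fit, 170 clones were called higher in slow-dried plants (22.1%) and 179 lower (23.3%), and these 349 (45.4%) included all 30. That fit has 1 residual degree of freedom per clone, so its standard errors rest almost wholly on a spread shared by all clones (median SE 0.156, against 0.252 in the fit of 8 arrays). Leaving out any 1 of the 4 polysomal arrays left 0 calls in the fit of 8 arrays, with 17 to 31 clones higher and 47 to 66 lower at an unadjusted p under 0.05. With all arrays, 79 clones were higher (10.3%) and 100 lower (13.0%) at that level. An exact permutation test of 2 arrays against 2 cannot go below a two-sided p of 0.333. Below, "called" refers to the fit of 8 arrays unless the 4-array fit is named. The adjusted p of each limma fit is given for some of the clones where they part. A clone described only as not called may thus be among the calls of the 4-array fit.

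On the control scale the fit of 8 arrays called 0 clones in either direction (lowest adjusted p 0.0547), while 139 were higher (18.1%) and 35 lower (4.56%) at an unadjusted p under 0.05. The 28 clones called lower still lay between 0.68 and 1.75 below the rehydrated plants on that scale. In the 4-array fit the control scale turned the balance of 170 higher and 179 lower into 386 higher (50.3%) and 72 lower (9.38%), and all 30 clones were among these calls.

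**Figure D1:**
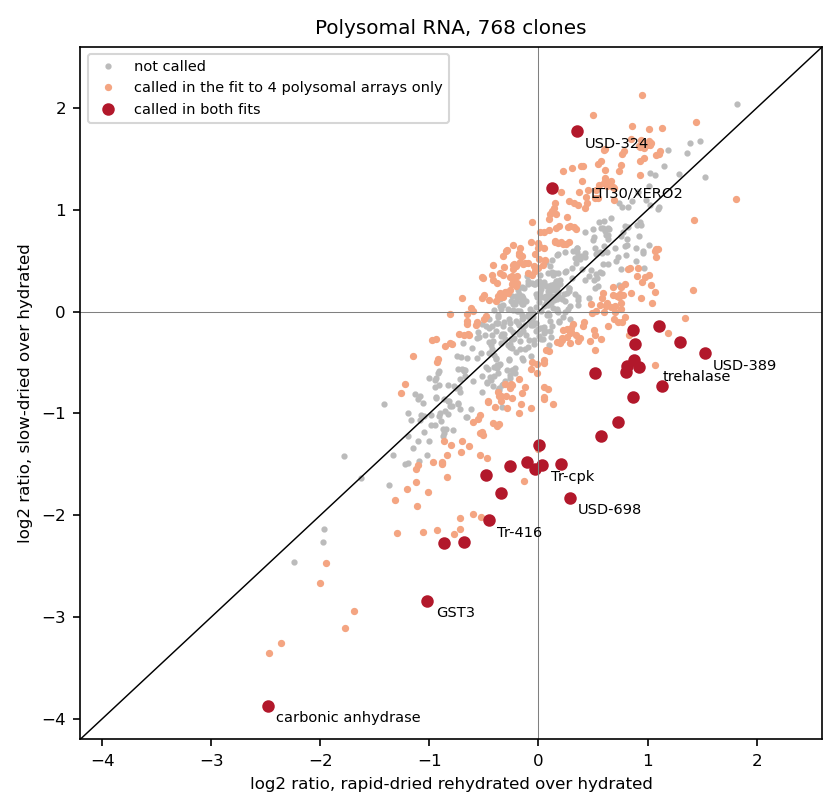
Log2 ratio of slow-dried over hydrated polysomal RNA (vertical axis) against that of rapid-dried rehydrated over hydrated polysomal RNA (horizontal axis), each the fitted value of 2 arrays, for 768 clones; the diagonal marks equal values. The 30 clones called in both fits (dark red) lie away from the diagonal, 28 of them below it, and the other clones called in the fit of 4 arrays (light) lie on both sides.

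The clones called lower had different histories relative to hydrated plants. Of the 28, 9 were lower than hydrated in slow-dried plants and higher than hydrated in rehydrated ones, 9 were lower in slow-dried plants and not called in rehydrated ones, 5 were higher in rehydrated plants and not called in slow-dried ones, and 5 were lower in both. Over all 768 clones, 20.7% were called higher and 24.5% lower than hydrated in slow-dried plants, and 19.1% higher and 17.3% lower in rehydrated ones. Both clones called higher were above hydrated in slow-dried plants and not called in rehydrated ones. On the control scale, 23 of the 28 were above hydrated in rehydrated plants and 1 below, and in slow-dried plants 11 were above and 5 below. That scale raises every rehydrated value by 1.05 and every slow-dried value by 1.42. Shares over all 768 clones were not counted on it, so these counts cannot be read as particular to the 28. The treated channel levels, after a normalization that uses both channels, differed with the same sign for 30 of the 30 clones. For 29 that difference was larger than the difference between the hydrated channels. The exception was USD-668, an unannotated clone called lower, where the treated channels differed by -0.79 and the hydrated ones by 0.91. The treated and hydrated parts make up the difference by which these clones were called, so the split describes them and is no separate test.

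Among enzymes that detoxify peroxides and reactive compounds, the microsomal glutathione S-transferase 3 (USD-460) was furthest apart. Its log2 ratios to hydrated plants were -2.84 and -2.84 in slow-dried plants and -1.07 and -0.97 in rehydrated ones. It was low in both treatments and lowest in the slow-dried arrays, with no overlap. The difference was -1.82 ± 0.23 (SE, 2 arrays a group), 3.53-fold, with an adjusted p of 0.0139. In the authors' deposited table, where control clones have a median of 1, its ratios were 0.387 and 0.405 in slow-dried plants and 1.03 and 1.17 in rehydrated ones, so on that scale the rehydrated plants were near the hydrated level.

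The other antioxidant and redox clones were less far apart. Of 12 on the list, 1 was called lower and 0 higher, with a median difference of -0.06 beside 0.03 over all clones, and in the 4-array fit 2 were higher and 2 lower (5 and 2 on the control scale). Catalase (USD-265), which breaks down hydrogen peroxide in peroxisomes, stood at 1.14 and 1.29 in slow-dried and 0.64 and 0.74 in rehydrated plants. It was thus above the typical clone on every array and highest in slow-dried plants, with a difference of 0.53 ± 0.23 (adjusted p = 0.229, and 0.0155 in the 4-array fit). A thioredoxin of the H type (USD-658), a small protein that reduces disulfides, lay the other way, at -0.80 ± 0.47 (adjusted p = 0.354, and 0.00165 in the 4-array fit). Stromal ascorbate peroxidase (USD-167), which uses ascorbate to remove peroxide in the chloroplast, was below the typical clone on all 4 arrays, at -1.49 and -1.35 in slow-dried and -1.90 and -1.67 in rehydrated plants, a difference of 0.37 ± 0.25. The 2 clones annotated as dehydroascorbate reductase, which regenerates ascorbate, stood at 0.50 ± 0.26 for USD-154 and -0.02 ± 0.23 for USD-202.

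Of the signalling clones, 2 of 11 were called lower and 0 higher, with a median difference of -0.16, or 0.20 on the control scale. The calmodulin-like domain protein kinase of this moss (Tr-cpk), the neutral control and one of a family that plants use to turn calcium signals into phosphorylation, had ratios of -1.49 and -1.52 in slow-dried plants. In rehydrated plants they were 0.32 and -0.25, close to the typical clone. The difference was -1.54 ± 0.22, with an adjusted p of 0.0197. Protein phosphatase 2C (USD-542) belongs to a family whose members include brakes on abscisic acid signalling. Its ratios of -1.73 and -1.85 in slow-dried plants lay well below the -0.24 and -0.45 of rehydrated ones, a difference of -1.44 ± 0.19 (adjusted p = 0.0160). A serine/threonine protein kinase (USD-233) differed by -1.04 ± 0.44 and SnRK1-interacting protein 1 (USD-543) by -0.51 ± 0.22. Neither was called (adjusted p = 0.212 and 0.221), while the 4-array fit gave 0.000207 and 0.0270.

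**Figure D2:**
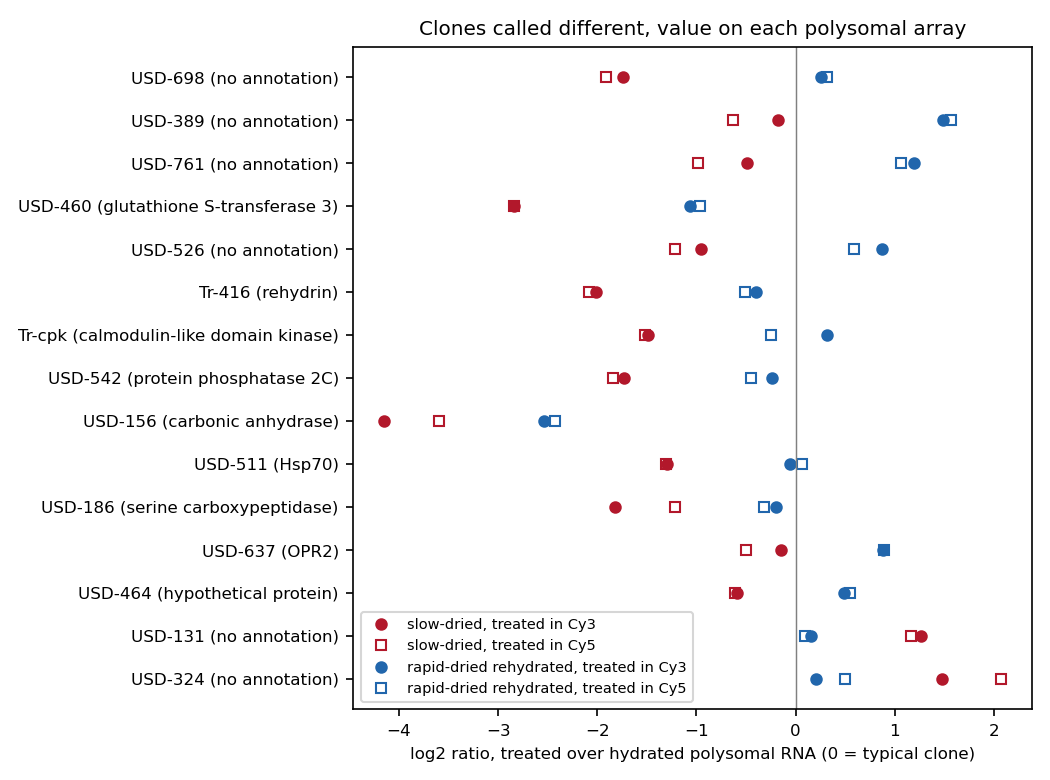
Log2 ratio of treated over hydrated polysomal RNA on each of the 4 polysomal arrays (horizontal axis) for the 9 annotated and 6 of the 21 unannotated clones called different, with filled circles for treated RNA in Cy3 and open squares for Cy5. For every clone shown, both slow-dried arrays (red) lie to one side of both rehydrated arrays (blue): to the left for 13 clones and to the right for USD-131 and USD-324.

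Messages for late embryogenesis abundant (LEA) proteins, rehydrins and other desiccation proteins went both ways. LEA proteins and dehydrins are hydrophilic proteins that accumulate in drying plant tissues and are held to protect membranes and proteins. Of 13 such clones 1 was called lower and 0 higher, and the 4-array fit called 6 lower and 3 higher (1 and 4 on the control scale). Their median difference was -0.20, and 0.17 on the control scale, so the direction of the median depends on the scale.

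The rehydrin Tr-416, a down-regulated control of the study, was the one called. Its ratios were -2.01 and -2.08 in slow-dried plants and -0.40 and -0.51 in rehydrated ones, so it lay below the typical clone on all 4 arrays and far lower when the plants were dry. The difference was -1.59 ± 0.25, 3.02-fold, with an adjusted p of 0.0243.

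Another rehydrin, Tr-217, likewise a down-regulated control, had the opposite sign. It stood at 1.21 and 1.14 in slow-dried plants and at -0.05 and 0.46 in rehydrated ones, a difference of 0.97 ± 0.25 (adjusted p = 0.0937, and 0.00106 in the 4-array fit). The up-regulated controls Tr-155, Tr-403 and Tr-421 differed by -0.55 ± 0.25, -0.20 ± 0.35 and -0.48 ± 0.20, none of them called. The dehydrin annotated LTI30/XERO2 (USD-107), named after cold- and drought-responsive dehydrins of Arabidopsis, also lay higher in slow-dried plants. Its ratios were 1.21 and 1.36 against 0.41 and 0.39, above the typical clone on every array, and the difference was 0.89 ± 0.26 (adjusted p = 0.113, and 0.000901 in the 4-array fit). In the authors' deposited table its ratios were 7.02 and 8.56 in slow-dried and 2.94 and 2.91 in rehydrated plants.

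The clone USD-231, annotated as rehydrin Tr-288, differed by 0.66 ± 0.21, while the clone named Tr-288 differed by -0.02 ± 0.37. The latter lay at -0.81 and -0.69 in slow-dried and -0.68 and -0.77 in rehydrated plants, with overlapping groups, and the gap between the 2 clones was not tested. Clones with the annotation Lea protein stood at -0.64 ± 0.24 for USD-161, -0.48 ± 0.19 for USD-397 and 0.31 ± 0.25 for USD-165. A desiccation-related protein (USD-468), with a relative known from the resurrection plant Craterostigma, differed by -0.59 ± 0.25. None of these was called (adjusted p from 0.147 to 0.975).

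Early light-inducible proteins bind chlorophyll for a short time and are held to protect the photosynthetic apparatus under stress. Both clones lay higher in slow-dried plants and neither was called. ELIPA (USD-274) stood at 0.51 and 0.58 against -0.17 and -0.14, a difference of 0.70 ± 0.26 (adjusted p = 0.173, and 0.00350 in the 4-array fit). ELIPb (USD-305) stood at 0.31 and 0.37 against -0.66 and -0.37, a difference of 0.85 ± 0.44 (adjusted p = 0.288, and 0.00125 in the 4-array fit). In each case the slow-dried arrays lay above the typical clone and the rehydrated arrays below it.

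Photosynthesis clones held the lowest ratios to hydrated plants among those named. Carbonic anhydrase of the chloroplast (USD-156), which interconverts carbon dioxide and bicarbonate, stood at -4.15 and -3.59 in slow-dried plants and -2.54 and -2.43 in rehydrated ones. It was the 1 called clone of the 5 on the photosynthesis list, with a difference of -1.39 ± 0.25, 2.62-fold (adjusted p = 0.0309). USD-180, annotated as a chlorophyll a/b-binding protein of the light-harvesting antenna, lay at -3.18 and -2.70 in slow-dried and -1.70 and -1.69 in rehydrated plants. Its groups did not overlap, and its difference of -1.25 ± 0.55 was not called (adjusted p = 0.223, and 0.000102 in the 4-array fit). On the control scale, carbonic anhydrase remained below hydrated in both treatments, at -2.46 in slow-dried and -1.43 in rehydrated plants. The chloroplast clones USD-599, annotated as a senescence-inducible stay-green protein, and USD-69, annotated as gamma-glutamylcysteine synthase, an enzyme of glutathione synthesis, differed by -0.34 ± 0.23 and 0.31 ± 0.27, neither called. Over the 5 clones the median was -0.34, or 0.03 on the control scale.

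The photorespiratory and nitrogen clones, which handle the products of oxygen fixation by Rubisco and reassimilate ammonia, had a median difference of 0.35 over 4 clones, with 0 called by limma and 0 at an unadjusted p under 0.05. Glycolate oxidase (USD-422) was high on every array, at 1.32 and 1.85 in slow-dried and 0.83 and 1.55 in rehydrated plants. Its groups overlapped, and the difference was 0.40 ± 0.45 (adjusted p = 0.618). Glutamine synthetase (USD-382) differed by 0.30 ± 0.29 and the ferredoxin-dependent glutamate synthase GLU2 (USD-11) by -0.20 ± 0.25.

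Chaperones had the lowest median of the lists, -0.98 over 4 clones and -0.62 on the control scale. Of the 4, 1 was called lower and 0 higher, and the 4-array fit called 3 lower and 0 higher (2 and 0 on the control scale). An ATP-dependent Clp protease regulator (USD-261) differed by only -0.03. Hsp70 (USD-511), which binds unfolded proteins, stood at -1.30 and -1.31 in slow-dried plants and at -0.06 and 0.06 in rehydrated ones. The rehydrated plants were thus at the typical clone and the slow-dried ones well under it, a difference of -1.31 ± 0.26 (adjusted p = 0.0418). Among other settings, Hsp70 was not called with median centring in place of loess (limma adjusted p = 0.0628) or with flagged spots left out (0.0502). A rof1-type peptidylprolyl isomerase (USD-630), of a family that assists protein folding, had ratios of -1.99 and -2.06 against -0.76 and -0.68. The difference was -1.30 ± 0.28, close in size to that of Hsp70, and missed the threshold (adjusted p = 0.0606, and 3.78e-05 in the 4-array fit). Hsp90 (USD-414) was uneven between dyes, at -0.68 and -2.07 in slow-dried and -0.28 and -1.15 in rehydrated plants. Its groups overlapped and its difference was -0.66 ± 0.40 (adjusted p = 0.359).

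Of 9 protein degradation clones, 1 was called lower and 0 higher, and the 4-array fit called 5 lower and 0 higher, with a median difference of -0.61. On the control scale that fit called 2 lower and 1 higher, and the median was -0.24. The called clone, a serine carboxypeptidase (USD-186), a vacuolar or secreted type of protease, stood at -1.82 and -1.22 in slow-dried plants and -0.20 and -0.32 in rehydrated ones. The difference was -1.26 ± 0.24 (adjusted p = 0.0365). A prolyl endopeptidase (USD-573) varied more between the dye-swapped arrays of a treatment than between treatments, at 0.46 and -1.20 against 1.02 and 0.01. In each dye orientation the slow-dried value was the lower one. The alpha 6 subunit of the 20S proteasome (USD-49) differed by -0.65 ± 0.22 and a vacuolar aspartic protease (USD-496) by -0.61 ± 0.28, neither called.

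Ribosomal proteins are the building blocks of the ribosome itself. None of 22 ribosomal protein clones was called by limma, with 0 higher and 2 lower at an unadjusted p under 0.05 and 1 higher and 4 lower in the 4-array fit, and their median difference was -0.04, or 0.33 on the control scale. On that scale the 4-array fit called 9 higher and 1 lower. Ribosomal protein L32 (USD-120) lay at -0.06 and 0.38 in slow-dried against 0.81 and 0.74 in rehydrated plants, a difference of -0.62 ± 0.22, and L30 (USD-182) differed by 0.42 ± 0.25. Among the 4 control clones the difference was -0.41 for L17, -0.38 for S14, 0.10 for S16 and -0.78 for S3. The control clones therefore spread over 0.89 on the log2 scale, more than the 0.37 by which they move the scale. The 4-array fit called 2 of these 4 controls lower, S3 (limma adjusted p = 0.00186) and L17 (0.0469), though they were described as unaffected by treatment. On the control scale it called S3 lower (0.0300) and S16 higher (0.0184). This limits what a call in the 4-array fit means for other clones. Elongation factor 2 (USD-356), which moves the ribosome along the message, differed by -0.28, with a 95% interval from -0.96 to 0.39.

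Carbohydrate and cell wall clones had a median difference of -0.69 over 5 clones, 0 of them called, with 3 lower both at an unadjusted p under 0.05 and in the 4-array fit. The 4-array fit on the control scale called 2 higher and 2 lower, and the median there was -0.32. Trehalase cleaves trehalose, a sugar that protects dry cells in many organisms. The trehalase clone USD-578 stood at -0.58 and -0.46 in slow-dried plants and 1.12 and 1.01 in rehydrated ones, a difference of -1.59 ± 0.45 (adjusted p = 0.113, and 1.36e-05 in the 4-array fit). The other trehalase clone, USD-539, lay the same way at -0.17 and -0.19 against 0.50 and 0.51, a difference of -0.69 ± 0.19 (adjusted p = 0.103, and 0.00380 in the 4-array fit). On both clones the rehydrated arrays lay above the typical clone and the slow-dried arrays below it. A chitinase (USD-667) differed by -1.11 ± 0.25 (adjusted p = 0.0639, and 0.000168 in the 4-array fit).

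Transport clones ran in both directions, with 0 of 11 called by limma, 1 higher and 3 lower at an unadjusted p under 0.05, and 4 higher and 4 lower in the 4-array fit (5 and 2 on the control scale). An oligopeptide transporter (USD-408) stood at -0.21 and -0.20 in slow-dried against 1.12 and 1.26 in rehydrated plants, a difference of -1.40 ± 0.38 (adjusted p = 0.103, and 2.69e-05 in the 4-array fit). VAMP714 (USD-109), a membrane protein of vesicle fusion, stood at 1.52 and 1.35 against 0.43 and 0.35. Its difference of 1.05 ± 0.29 was the largest in the higher direction among annotated clones (adjusted p = 0.103, and 0.000207 in the 4-array fit). An inorganic phosphate transporter (USD-649) differed by -0.76 ± 0.24 and a voltage-dependent anion channel (USD-519) by -0.68 ± 0.23, neither called.

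Clones of mitochondria and primary metabolism had a median of 0.02 over 14, with 0 called by limma and 1 higher and 1 lower at an unadjusted p under 0.05. The flavoprotein subunit of succinate dehydrogenase (USD-421), which links the citric acid cycle to respiration, stood at -1.23 and -1.60 in slow-dried and -0.45 and -0.63 in rehydrated plants, a difference of -0.87 ± 0.23 (adjusted p = 0.101). A grim19-like protein (USD-160), annotated as a cell death-regulatory protein and in mammals a part of respiratory complex I, stood at 1.19 and 1.16 against 0.54 and 0.21, a difference of 0.80 ± 0.21 (adjusted p = 0.0969). The 4-array fit gave these clones adjusted p-values of 0.00103 and 0.00198.

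Clones tied by annotation to abscisic acid, dehydration, cold or senescence had a median of -0.49 over 11, or -0.12 on the control scale, with 0 called by limma, 2 lower at an unadjusted p under 0.05, and 6 lower and 0 higher in the 4-array fit. The same fit on the control scale called 0 lower and 1 higher. The 2 clones related to fip1 and annotated as responsive to abscisic acid differed by -0.75 ± 0.22 (USD-405) and -0.64 ± 0.46 (USD-454). A low temperature-induced protein (USD-693) stood at -0.06 and 0.05 in slow-dried against 0.70 and 0.70 in rehydrated plants, a difference of -0.70 ± 0.25 (adjusted p = 0.162, and 0.00348 in the 4-array fit). A senescence-associated clone (USD-38) stood at 1.30 and -0.44 in slow-dried plants, on either side of the 0.93 and 0.99 of rehydrated ones.

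Lipid clones had a median of -0.13 over 10, with 0 called by limma and 1 higher at an unadjusted p under 0.05. Phospholipase D alpha (USD-157), which makes the signalling lipid phosphatidic acid, differed by 0.47 ± 0.24. The serine decarboxylase (USD-329), which makes ethanolamine for phospholipids, was high on every array, at 1.35 and 1.30 in slow-dried and 1.52 and 1.54 in rehydrated plants, and differed by -0.20 with a 95% interval from -0.77 to 0.37, and by 0.16 on the control scale. Of the 3 transcription and RNA binding clones, DBF1 (USD-564), a factor of the AP2 family, differed by -0.78 ± 0.43 and a RING zinc finger protein (USD-218) by 0.60 ± 0.22. The 2 cytoskeleton clones differed by 0.02 and 0.10.

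**Figure D3:**
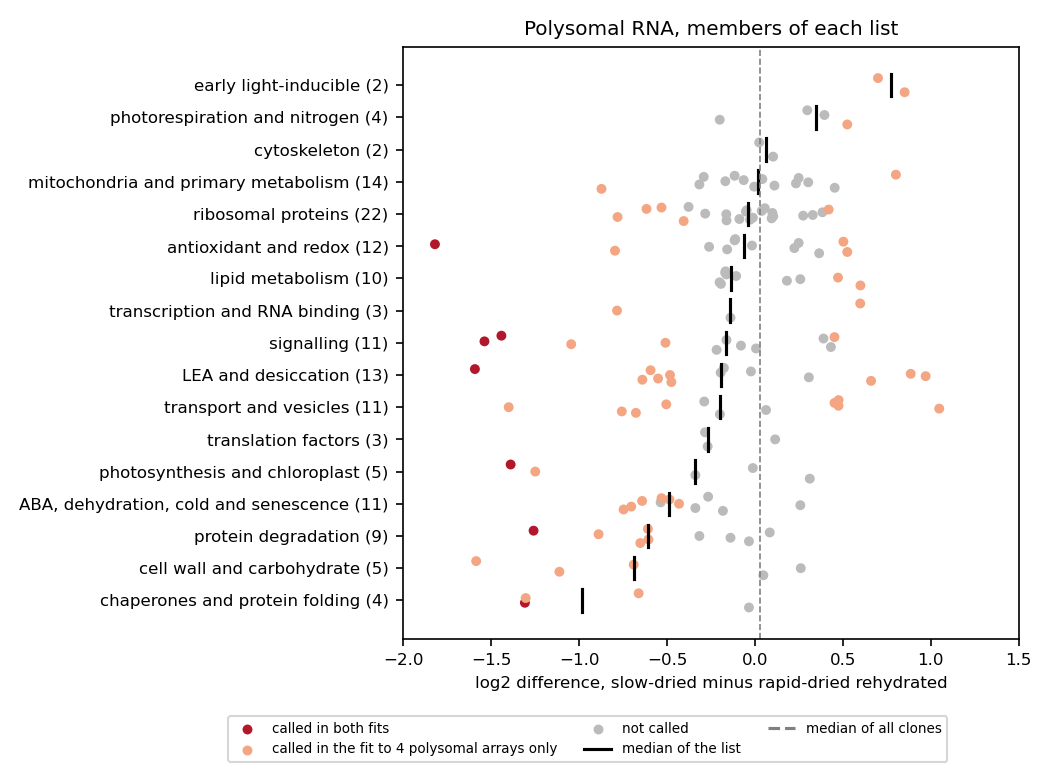
Log2 difference between slow-dried and rapid-dried rehydrated polysomal RNA (horizontal axis) for the members of 17 lists, with the number of clones in brackets, a black bar at each list's median and a dashed line at the median of all 768 clones. The medians run from -0.98 for chaperones to 0.78 for early light-inducible proteins, and most lists hold clones on both sides of 0.

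OPR2 (USD-637) is annotated to the 12-oxophytodienoate reductase family, which in flowering plants holds enzymes of jasmonate synthesis. It stood at -0.14 and -0.50 in slow-dried plants and at 0.88 and 0.90 in rehydrated ones, so the groups lay on either side of the typical clone. The difference was -1.21 ± 0.21, 2.31-fold (adjusted p = 0.0273). The hypothetical protein USD-464 had a similar pattern, with -0.59 and -0.61 against 0.49 and 0.55 and a difference of -1.12 ± 0.19 (adjusted p = 0.0283).

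Clones without an annotation made up 21 of the 30 calls, 3.76% of the unannotated clones beside 4.31% of the annotated ones. The lowest fitted difference was that of USD-698, at -1.74 and -1.92 in slow-dried plants and 0.26 and 0.31 in rehydrated ones, a difference of -2.11 ± 0.21, 4.33-fold (adjusted p = 0.0125). USD-761 stood at -0.49 and -0.98 against 1.20 and 1.06, and USD-526 at -0.95 and -1.22 against 0.87 and 0.59. Each of these 3 was below the typical clone when the plants were slow-dried and above it when they had been rehydrated.

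USD-389 stood at -0.18 and -0.63 in slow-dried and 1.48 and 1.56 in rehydrated plants. Its slow-dried channel was not well above background on either array, so no exact fold is given. A bound put it 3.53-fold lower in slow-dried plants, and its fitted difference had an adjusted p of 0.0125 in limma. On 1 slow-dried array the hydrated channel was not well above background either. The bound takes that hydrated value as measured, so it is not strict: a lower hydrated level would make the fold smaller. This bound is the same difference of treated over hydrated ratios, with the slow-dried channel raised to the level at its background limit. USD-389 was the 1 clone among the 30 called with a channel not well above background on both arrays of a treatment, and 66 of the 768 had such a channel.

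The clones called higher were USD-324 and USD-131. USD-324 stood at 1.47 and 2.07 in slow-dried and 0.20 and 0.50 in rehydrated plants, a difference of 1.42 ± 0.23, 2.68-fold (adjusted p = 0.0243). USD-131 stood at 1.26 and 1.16 against 0.16 and 0.09, a difference of 1.09 ± 0.19, 2.13-fold (adjusted p = 0.0283). Both were above the typical clone on every array. The hydrated channel of USD-324 was not well above background on 1 slow-dried array, and a filter on such clones leaves it out.

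**Figure D4:**
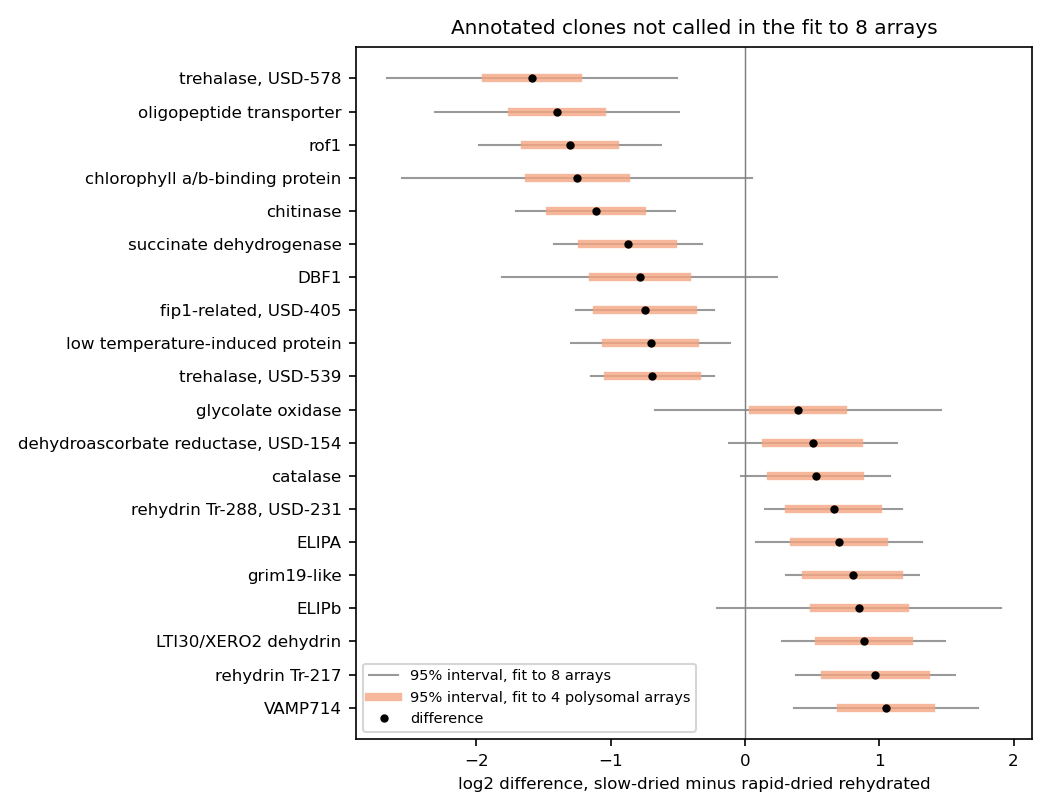
Log2 difference between slow-dried and rapid-dried rehydrated polysomal RNA (horizontal axis) for 20 annotated clones not called in the fit of 8 arrays, with 95% intervals from that fit (thin grey) and from the fit of the 4 polysomal arrays (thick). The clones run from trehalase USD-578 at -1.59 to VAMP714 at 1.05, and the intervals of the 4-array fit are the narrower ones.

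The same contrast in total RNA, from other plant samples and arrays, was used to ask whether the polysomal differences had a counterpart. There 47 clones were called higher (6.12%) and 87 lower (11.3%) in slow-dried plants. These calls had no filter on dim clones, and on the rehydrated array of slide 3 the hydrated channel was well above background for 36.6% of clones. Of the 28 clones lower in polysomal RNA, 25 lay below 0 in total RNA too, where the median of all 768 clones was -0.02. There 15 of the 28 were called lower, which is 53.6% of the polysomal list and 17.2% of the total list. Across the 768 clones the polysomal and total differences correlated at r = 0.452, a description over clones that share arrays. The spread of the difference across clones was smaller in polysomal RNA (SD 0.570) than in total RNA (SD 0.786).

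Glutathione S-transferase 3 differed by -2.03 in total RNA beside -1.82 in polysomal RNA, Tr-416 by -1.78 beside -1.59, carbonic anhydrase by -1.60 beside -1.39 and Hsp70 by -1.49 beside -1.31. For these 4 the total difference was called too. Protein phosphatase 2C differed by -0.46 in total RNA beside -1.44 in polysomal RNA, and OPR2 by -0.57 beside -1.21, neither called in total RNA. The protein kinase Tr-cpk had opposite signs, 0.71 in total and -1.54 in polysomal RNA. The test of that gap gave -2.25 ± 0.31 with an adjusted p of 0.0539. USD-324 also had opposite signs, -0.57 in total and 1.42 in polysomal RNA, a gap of 2.00 ± 0.33 (adjusted p = 0.0585).

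The test of the polysomal difference minus the total one called 2 clones, 0.26% of the 768, and 157 (20.4%) had an unadjusted p under 0.05. USD-135 had a difference of 0.61 in polysomal RNA and -1.61 in total RNA, a gap of 2.21 ± 0.28 (adjusted p = 0.0469). USD-74 had -0.76 in polysomal RNA and 2.06 in total RNA, a gap of -2.82 ± 0.29 (adjusted p = 0.0239). Both are unannotated, neither was among the 30 clones called, and none of the 28 clones lower in polysomal RNA passed the test of the gap.

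**Figure D5:**
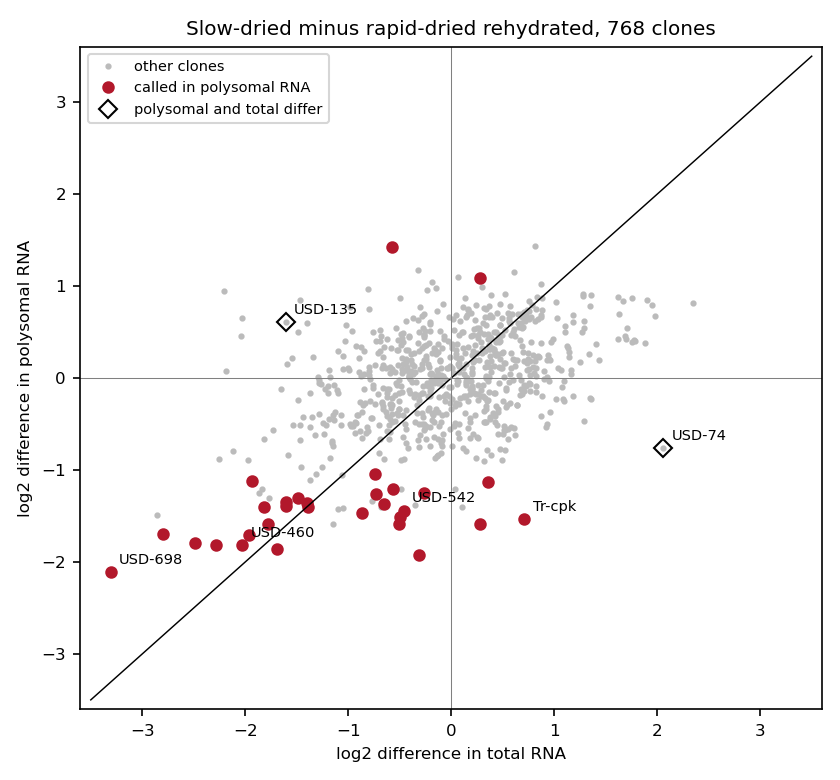
Log2 difference between slow-dried and rapid-dried rehydrated plants in polysomal RNA (vertical axis) against that in total RNA (horizontal axis) for 768 clones; the diagonal marks equal differences. Most clones called in polysomal RNA (red) lie in the lower left, below 0 in both, while Tr-cpk and the diamonds USD-135 and USD-74, whose gap was called, have opposite signs.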

How the data were processed

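Per the file headers, the deposited scanner files give for each spot and channel the mean intensity and the local background with its SD, not normalized. The deposited spot flag is another kind of value, with no stated meaning, and served in 1 alternative. The authors also deposited 1 ratio of treated over hydrated signal per clone and array, in which the control clones have a median of 1.00, and it was an alternative and a source of values credited to it. The sources used here name no scanner or image software.

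From the intensities, background was corrected by normexp (offset 50), log2 ratios were normalized by global loess (span 0.3, 4 iterations) and the 3 spots of a clone were averaged. One model with a coefficient for each of the 4 treatments by RNA types and a dye term was fitted over 8 arrays (limma 3.58.1, R 4.3.3, empirical Bayes, 3 residual and 6.80 total degrees of freedom). Two-sided p-values of the contrast were adjusted by Benjamini-Hochberg over 768 clones and called under 0.05. They measure the spread between these pooled preparations, and the number of arrays limits precision. Replicate numbers name the dye orientation and pair no samples. The fit to the 4 polysomal arrays, the control scale (each array shifted so that the mean of clones L17, S14, S16 and S3 is 0) and the other alternatives are given in the closing section. The design text names a control set that differs from these clones in part.

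Well above background means over the local background by 2 background SD on average. The fit was tested on simulated data. Named clones were up to 14 annotated and 4 unannotated called clones in each direction with groups that do not overlap, up to 4 members of each list by size, all control clones and clones sharing an annotation with a named clone. The clones USD-161, USD-165, USD-167, USD-397, USD-468 and USD-668 fall outside this rule and were chosen after their values were seen. Lists are matches to the annotation text. The members, lists and rules were chosen with earlier results of these data known. The files hold no clone sequences, so none are shown.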

Additional observations from a re-analysis of the deposited data

Results flagged for a closer look

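For 2 unannotated clones the difference between slow-dried and rehydrated plants was itself different in polysomal and in total RNA by limma's test of that gap. USD-135 was higher in slow-dried plants by 0.61 in polysomal RNA and lower by 1.61 in total RNA, a gap of 2.21 ± 0.28 on the log2 scale (SE, 2 arrays a group, adjusted p = 0.0469). USD-74 had a difference of -0.76 in polysomal and 2.06 in total RNA, a gap of -2.82 ± 0.29 (adjusted p = 0.0239). Leaving out any 1 of the 4 polysomal arrays left 0 clones called in this test. The polysomal and total RNA came from different plant samples.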

How the results depend on the processing

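Clones called higher and lower in slow-dried polysomal RNA numbered 2 and 28. On the control scale, with dye-swap normalization without loess, with plain background subtraction and with the treated channels compared directly they numbered 0 and 0. The authors' ratio table gave 0 and 1 (not among the 28), no dye term 4 and 30, a filter on dim clones, which leaves out the called clones USD-324 and USD-389, 5 and 35. The 4 polysomal arrays alone gave 170 and 179. Leaving out 1 polysomal array gave 0 to 0 in both directions. Median centring, no normexp offset, no background correction, leaving out flagged spots, the median of spots and a fold of 1.5 gave 2 or 3 and 22 to 29. The clones were not all the same ones. Hsp70 was lost with median centring, no normexp offset, flagged spots left out and the median of spots. Tr-cpk was lost with flagged spots left out and the median of spots. Serine carboxypeptidase, OPR2, USD-464 and USD-761 were each lost under at least 1 of these settings. Alternatives chosen after seeing the data gave 65 and 9 (control scale without S16), 386 and 72 (4 arrays, control scale), 220 and 75 (4 arrays, authors' table), 21 and 39 (4 arrays, treated channels directly, sharing 0 and 19 of the calls) and 125 and 147 (array weights).

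For the polysomal minus total difference, the counts of 1 higher and 1 lower call became 3 and 1 on the control scale, with or without S16. They were 2 and 0 with dye-swap normalization and 1 and 0 without background correction. No normexp offset, plain subtraction and the median of spots gave 0 and 0. The authors' table gave 0 and 1, no dye term 6 and 4, and leaving out flagged spots 1 and 2. The dim filter left 254 clones to test and gave 5 and 0. The higher calls did not include USD-135 on the control scale with S16, with dye-swap normalization, without background correction or with the dim filter. The lower call in the authors' table was not USD-74. Leaving out 1 polysomal array gave 0 to 0. Dye-swap normalization leaves the arrays uncentred and puts the median difference of all clones at 1.15. There 37 named clones changed sign, among them the hypothetical protein USD-464, to 0.28. This was the 1 sign change of a called clone among those named. USD-29 and USD-670, called lower but outside the rule for named clones, each kept their direction in 22 of 23 alternatives. Clones not called changed sign in 147 of the 1874 values of named clones, 12 of them on the control scale. Elsewhere the cause was not tested. No paired analysis was possible because replicate numbers name dye orientation. A print-tip loess was not run.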

Other observations

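Other annotated clones outside the lists, chosen after their values were seen, are given here as values only. Phenylalanine ammonia-lyase (USD-491), the entry step of phenylpropanoid synthesis, stood at 0.44 and -0.17 in slow-dried and -0.75 and -0.64 in rehydrated polysomal RNA, a difference of 0.83 ± 0.26 (limma adjusted p = 0.141, and 0.00368 in the fit of the 4 polysomal arrays). Chalcone synthase (USD-685), the entry step of flavonoid synthesis, stood at -0.36 and -0.26 against -0.91 and -0.72, a difference of 0.50 ± 0.19 (adjusted p = 0.186, and 0.0200). Neither was called in the fit of 8 arrays, and the slow-dried arrays lay above the rehydrated ones for both. A clone annotated as a spherulin-1B precursor (USD-256) stood at 0.65 and 0.66 against -0.14 and -0.33, a difference of 0.90 ± 0.20 (adjusted p = 0.0647, and 0.000867).

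The photosystem I subunit III (USD-591), which docks plastocyanin, was missed by the photosynthesis search pattern. It stood at -3.54 and -2.96 in slow-dried and -2.45 and -2.27 in rehydrated plants, low on every array and lowest in slow-dried plants, with a difference of -0.89 ± 0.29 (adjusted p = 0.149, and 0.00116). A second clone of the 12-oxophytodienoate reductase family (USD-406) had a difference of -0.87 ± 0.52 beside -1.21 ± 0.21 for OPR2 (USD-637). Its arrays overlapped, at -0.40 and 0.19 against 0.08 and 1.45, and it was not called (adjusted p = 0.351, and 0.00332).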
